A study of Mus musculus with 9 samples.

Results

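The 6 mouse genes that write and oxidise DNA methylation, Dnmt1, Dnmt3a, Dnmt3b, Tet1, Tet2 and Tet3, were followed through newly made RNA of CD8+ T cells. They were taken by gene symbol. Each transcript row of the deposited tables was matched to the GENCODE M21 annotation, and each gene was represented by its row of highest average gene-body signal across the 9 libraries. All 6 genes had a row, among 37022 genes with one. All 6 passed the filter on low gene-body values, 3 or more libraries with a signal of 50 or higher, and 3 of them (Dnmt3a, Tet2 and Tet3) passed it in the pause region.

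The study measured nascent RNA in cultured CD8+ T cells of mice, which kill infected and tumour cells, to follow transcription linked to exhaustion, the loss of function under lasting stimulation. A uridine analogue, 5-ethynyl uridine, was given to the cells at 0.2 mM over 30 minutes, and RNA that had taken it up was captured and sequenced. There were 3 libraries per group: acutely stimulated cells, chronically stimulated cells, and chronically stimulated cells given a MEK inhibitor (MEK is the kinase that activates ERK). Neither the inhibitor, its dose, the length and manner of stimulation, nor the strain, age or number of mice is given in the labels, and nothing there says that the libraries came from separate animals or cultures, so the p-values below measure the spread between these libraries, which may be technical.

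In mammals, DNMT1 copies cytosine methylation onto the new strand after replication, with UHRF1 guiding it to half-methylated sites. DNMT3A and DNMT3B set methylation at unmethylated CpG sites. The TET enzymes oxidise methylcytosine, and the oxidised bases are lost by dilution at replication or removed by the glycosylase TDG and base excision repair. In CD8+ T cells, DNMT3A is known for silencing effector and memory genes during exhaustion, and loss of TET2 is known to favour memory-like cells.

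The values are signal scaled between libraries by a trimmed mean of log ratios, and fold changes are differences of log2(signal + 5). The gene-body table covers the transcribed gene, and the table read here as pause region covers the stretch near the start, where polymerase often halts. Depth in reads is unknown: the deposited gene-body signal summed to between 48601757 and 52216192 per library, and no counting interval can be given. A ribosomal RNA-like locus took 19.1% to 22.3% of the gene-body signal in acute, 34.2% to 40.6% in chronic and 29.0% to 36.1% in MEK-inhibited libraries. The scaling therefore matters. Between chronic and acute libraries the median log2 fold change over genes was -0.01 with the trimmed mean and with the median of ratios, -0.50 with library totals, -0.48 on the deposited scale and -0.17 with totals that leave out that locus. Dusp6, a direct output of ERK signalling, checked the MEK label: acute libraries had a signal of 2533 ± 297 (SD, n = 3), chronic ones 2436 ± 120 and MEK-inhibited ones 198 ± 6.82. All 10 CD8 T cell markers passed the filter. Their summed signal ran from 80961 to 87535 in acute, 62322 to 65796 in chronic and 63037 to 66922 in MEK-inhibited libraries, with Ptprc as its largest part. Cd8a, the defining marker, had means of 4107, 986 and 2804 in the 3 groups, so it was lowest in chronic libraries. The part of this difference in the results was not tested.

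Between chronic and acute stimulation, Dnmt3a rose while Dnmt3b, Tet1 and Tet2 fell. With the MEK inhibitor under chronic stimulation, Dnmt3a fell, and Dnmt3b and Dnmt1 rose. Tet3, the strongest of the TET genes, passed the test in no gene-body comparison. By limma adjusted p under 0.05, 4 of the 6 genes were called between chronic and acute (1 higher, 3 lower), against 33.8% of the 15942 genes tested (18.3% higher, 15.5% lower). Between MEK-inhibited chronic and chronic libraries 3 of 6 were called (2 higher, 1 lower), against 17.7% of all genes (8.11% higher, 9.61% lower). Between MEK-inhibited chronic and acute libraries 2 of 6 were called (1 higher, 1 lower), against 26.5% (12.5% higher, 14.0% lower). Each pair of comparisons shares the 3 libraries of 1 group. With 6 genes, these shares do not set the family apart from other genes. Which members are called, and how many in each direction, depends on the scaling. With library totals, 0 members were higher and 4 lower (Dnmt1 in place of Dnmt3a) between chronic and acute libraries, against 6.87% higher and 42.9% lower over all genes. Between MEK-inhibited and acute libraries 0 were then higher and 2 lower (Tet1 and Tet2), against 5.99% and 31.1%. The counts of members were the same on the deposited scale in both of these comparisons.

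**Figure D1:**
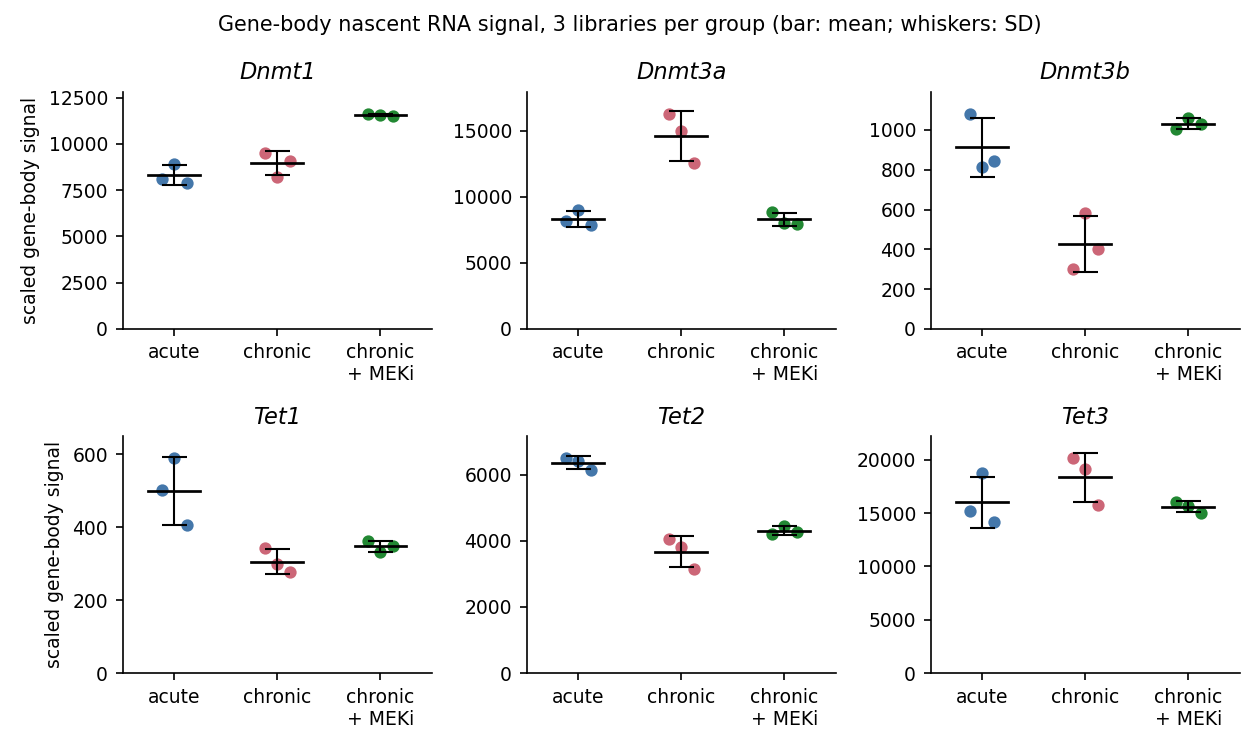
Scaled gene-body signal (vertical axis, linear, starting at 0) of the 6 genes in each of the 9 libraries, with the mean and SD of 3 libraries per group. Dnmt3a and Dnmt3b mirror each other in the chronic group: Dnmt3a lies between 12560 and 16302 there and Dnmt3b between 301 and 582, while their acute and MEK-inhibited libraries overlap.

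Levels can be set between genes only per length. Per kb of transcript, the gene-body signal in acute libraries ran from Tet3 (202 ± 30.2, SD, n = 3) and Dnmt1 (158 ± 10.4) through Tet2 (78.7 ± 2.43) and Dnmt3a (77.5 ± 5.52) to Dnmt3b (23.9 ± 3.85) and Tet1 (5.29 ± 0.976). Tet2 and Dnmt3a did not differ beyond their spread there. The level of Dnmt1 is taken over a row whose first stretch is nearly silent, as shown further on. In chronic libraries Dnmt3a stood at 136 ± 17.7 per kb and Tet2 at 45.4 ± 5.82, so that the 2 genes, level in acute cells, were separated in every chronic library. In MEK-inhibited libraries Dnmt1 (220 ± 1.26 per kb) stood above Tet3 (197 ± 6.49), the reverse of their order in the other groups. On these rows no other neighbours in the orders overlapped. Over the stretch of Dnmt1 past its silent start, however, its libraries ran from 172 to 194 per kb in acute and from 178 to 207 in chronic cells, which overlaps Tet3 (178 to 236 and 199 to 254). Over the 9 libraries, Tet3 lay above 91.7% and Dnmt1 above 89.8% of the genes tested, whereas Dnmt3b lay above 36.5% and Tet1 above 17.7%.

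Dnmt1, the maintenance enzyme, spans chr9:20907209-20959888 on the minus strand (GRCm38). Its gene-body signal was 8101, 8936 and 7898 in acute libraries, 9532, 8240 and 9090 in chronic libraries, and 11645, 11567 and 11513 in MEK-inhibited libraries. The MEK-inhibited libraries lay above all others, and the acute and chronic ones overlapped. Dnmt1 rose by 0.37 on the log2 scale with the inhibitor (SE 0.08, limma adjusted p = 0.00404), a fold change of 1.29 with a 95% interval of 1.15 to 1.46. Against acute libraries it rose by 0.48 (limma adjusted p = 0.000314). Between chronic and acute libraries it differed by 0.11 (95% interval -0.07 to 0.28, limma adjusted p = 0.352). The last value turned with the scaling: it was -0.39 with library totals (limma adjusted p = 0.0138) and -0.38 on the deposited scale (limma adjusted p = 0.0169). On those scales the rise against acute libraries was 0.15 and 0.19 and was not called, while the rise against chronic libraries stayed called (0.54 and 0.57).

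The annotation gives Dnmt1 several starts, and the signal set the most upstream one apart from the others. The kept row begins at the most upstream start, 20959888, where the pause-region signal was 0 in 8 of 9 libraries and 0.594 in the other. The first 6.909 kb of that row carried 5.74 ± 4.32 signal per kb in acute, 10.3 ± 1.73 in chronic and 13.7 ± 2.03 in MEK-inhibited libraries, against 181 ± 11.4, 194 ± 14.5 and 251 ± 1.56 per kb downstream of it. The pause-region signal was highest at 20952623, the start of Dnmt1-203: 193, 198 and 162 in acute, 188, 198 and 187 in chronic, and 331, 351 and 272 in MEK-inhibited libraries. All MEK-inhibited libraries lay above all others. Against chronic libraries the difference was 0.71 (log2), and the two-sided exact permutation test gave p = 0.1, the lowest value open to groups of 3, or 0.264 adjusted over 66 tests of starts. The 250 bases before 3 of these starts are shown, because the start with signal and the silent one differ in CpG content. They are given on the coding strand from RefSeq (GRCm38.p6), with each CpG in capitals.
Dnmt1 at 20952623, minus strand, chr9:20952624-20952873: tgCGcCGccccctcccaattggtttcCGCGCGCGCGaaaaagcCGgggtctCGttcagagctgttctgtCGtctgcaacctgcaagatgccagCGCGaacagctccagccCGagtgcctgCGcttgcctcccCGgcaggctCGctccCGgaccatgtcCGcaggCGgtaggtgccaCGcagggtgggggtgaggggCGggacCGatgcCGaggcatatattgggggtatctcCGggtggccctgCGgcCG
Dnmt1 at 20952979, minus strand, chr9:20952980-20953229: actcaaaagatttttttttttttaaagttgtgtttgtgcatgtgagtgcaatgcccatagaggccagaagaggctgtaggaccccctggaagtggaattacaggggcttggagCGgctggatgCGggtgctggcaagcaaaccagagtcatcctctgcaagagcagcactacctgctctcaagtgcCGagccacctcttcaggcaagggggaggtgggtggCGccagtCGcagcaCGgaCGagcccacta
Dnmt1 at 20959888, minus strand, chr9:20959889-20960138: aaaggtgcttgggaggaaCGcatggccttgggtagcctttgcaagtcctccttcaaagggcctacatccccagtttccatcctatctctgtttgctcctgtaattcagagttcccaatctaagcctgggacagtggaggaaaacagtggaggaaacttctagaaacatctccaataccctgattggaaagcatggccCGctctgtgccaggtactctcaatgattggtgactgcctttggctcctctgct
The first holds 26 CpG, more than 90.4% of 32851 mouse promoters of this length, whose median is 6. The second holds 7, and its pause-region signal was 59.6 ± 24.8, 79.9 ± 16.8 and 120 ± 14.9 in acute, chronic and MEK-inhibited libraries. The third holds 2, with 18.8% of promoters below it. The first also holds a match to E2F letters (TTTGGCGC, TTTCGCGC or TTTCCCGC, either strand) 219 bases before the start and to SP1 letters (GGGCGGG) 57 bases before it. These letters occur in 1.53% and 23.4% of promoters. A match in letters is not a measured binding site.

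Dnmt3a, a de novo enzyme, spans chr12:3806007-3914443 on the plus strand. Its gene-body signal was 8171, 8983 and 7829 in acute libraries, 16302, 14993 and 12560 in chronic libraries, and 8883, 8039 and 7945 in MEK-inhibited libraries. Every chronic library was above every other one, and the acute and MEK-inhibited libraries overlapped. Dnmt3a rose by 0.81 on the log2 scale under chronic stimulation (SE 0.10, limma adjusted p = 4.44e-06), a fold change of 1.75 with a 95% interval of 1.51 to 2.02. With the inhibitor it fell by 0.81 (SE 0.10, limma adjusted p = 8.96e-06). Against acute libraries the MEK-inhibited ones differed by -0.01, with a 95% interval of -0.21 to 0.20 (limma adjusted p = 0.974). Under library totals the chronic rise was 0.31 (limma adjusted p = 0.0789) and on the deposited scale 0.32 (limma adjusted p = 0.0618), so that call rests on the scaling, whereas the fall with the inhibitor was called under every scaling tried.

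Of the 18 annotated Dnmt3a rows, 17 passed the filter; all 17 were higher in chronic than acute libraries, by 0.18 to 1.04 (log2), and 16 of 17 were lower with the inhibitor. These rows overlap and are not separate measurements. The part upstream of the internal start at 3891744 took 71.7% ± 2.34 of the signal in acute, 70.8% ± 4.71 in chronic and 72.8% ± 1.14 in MEK-inhibited libraries. The share thus differed by less than its spread, and the rise covered both stretches: upstream 70.6 ± 7.26 signal per kb in acute and 123 ± 23.2 in chronic libraries, downstream 103 ± 3.86 and 186 ± 9.14. At the upstream starts the pause-region signal did not move in step. On the kept row it was 81.7, 41.0 and 38.8 in acute, 71.9, 37.2 and 117 in chronic, and 57.9, 111 and 47.0 in MEK-inhibited libraries, and the groups overlapped (chronic against acute 0.39, limma adjusted p = 0.681). The 250 bases before an upstream and the internal start are shown for their CpG content.
Dnmt3a at 3807160, plus strand, chr12:3806910-3807159: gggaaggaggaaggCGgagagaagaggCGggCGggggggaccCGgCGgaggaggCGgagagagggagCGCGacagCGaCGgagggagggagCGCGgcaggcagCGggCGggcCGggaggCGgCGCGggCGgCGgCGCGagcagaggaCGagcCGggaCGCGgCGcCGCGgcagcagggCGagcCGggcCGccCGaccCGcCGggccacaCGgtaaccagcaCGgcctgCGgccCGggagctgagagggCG
Dnmt3a at 3891744, plus strand, chr12:3891494-3891743: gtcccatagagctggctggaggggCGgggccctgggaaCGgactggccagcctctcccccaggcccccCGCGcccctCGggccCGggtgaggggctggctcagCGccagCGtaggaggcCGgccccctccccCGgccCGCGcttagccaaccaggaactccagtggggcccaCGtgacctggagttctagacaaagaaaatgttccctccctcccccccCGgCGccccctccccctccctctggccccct
The upstream one holds 40 CpG, more than 98.7% of promoters, and the internal one 15, more than 72.7%. At the internal start the pause-region signal was 37.3 ± 7.41 in acute, 45.6 ± 12.4 in chronic and 32.1 ± 13.9 in MEK-inhibited libraries and did not pass the filter. Signal at an internal start cannot be told apart from RNA begun upstream.

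Dnmt3b, the other de novo enzyme, spans chr2:153649450-153687730 on the plus strand. Its gene-body signal was 1082, 813 and 844 in acute libraries, 301, 582 and 399 in chronic libraries, and 1004, 1059 and 1029 in MEK-inhibited libraries. All chronic libraries lay below all others, the opposite of Dnmt3a. Dnmt3b fell by 1.13 on the log2 scale under chronic stimulation (SE 0.20, limma adjusted p = 0.000279), to 0.458 of the acute level (95% interval 0.341 to 0.616). With the inhibitor it rose by 1.31 (SE 0.20, limma adjusted p = 0.000131), a fold change of 2.48 with a 95% interval of 1.85 to 3.34. Against acute libraries the MEK-inhibited ones differed by 0.19 (95% interval -0.24 to 0.61, limma adjusted p = 0.556). Both calls held under every scaling, filter, row choice and left-out library tried, except that the row with the largest pause-region signal did not pass the filter. In the pause region Dnmt3b was near 0, at 12.7 ± 15.3, 2.33 ± 4.04 and 16.9 ± 7.13, and was not tested.

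Tet1, which has an N-terminal CXXC domain that binds unmethylated CpG, was the weakest of the 6. It spans chr10:62804570-62908996 on the minus strand. Its gene-body signal was 503, 591 and 406 in acute libraries, 343, 298 and 277 in chronic libraries, and 363, 332 and 350 in MEK-inhibited libraries. The acute libraries lay above all others. Tet1 fell by 0.69 under chronic stimulation (SE 0.21, limma adjusted p = 0.0152). The MEK-inhibited libraries differed from the chronic ones by 0.19 (95% interval -0.25 to 0.62, limma adjusted p = 0.620) and from the acute ones by -0.50 (limma adjusted p = 0.0866). The last difference was called under 3 of the 5 scalings: it was -0.83 with library totals (limma adjusted p = 0.00628), -0.79 on the deposited scale (limma adjusted p = 0.00977) and -0.61 with totals that leave out the ribosomal RNA-like locus (limma adjusted p = 0.0332). The fall under chronic stimulation was called under all 5 and was -1.18 with library totals. This fall was lost without acute replicate 2 (-0.57, limma adjusted p = 0.0671), with no filter (-0.69, limma adjusted p = 0.0684) and on the row with the largest pause-region signal (-0.34, limma adjusted p = 0.438). At none of its 8 annotated starts did the mean pause-region signal over the 9 libraries exceed 3.11.

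Tet2, the TET gene best known from blood cells, spans chr3:133463679-133545139 on the minus strand. Its gene-body signal was 6507, 6418 and 6132 in acute libraries, 4043, 3808 and 3138 in chronic libraries, and 4204, 4444 and 4280 in MEK-inhibited libraries. The 3 groups did not overlap, with MEK-inhibited libraries between the others and nearer to the chronic ones. Tet2 fell by 0.80 under chronic stimulation (SE 0.10, limma adjusted p = 4.24e-06), to 0.574 of the acute level (95% interval 0.498 to 0.662). The MEK-inhibited libraries were still lower than acute ones by 0.56 on the log2 scale (SE 0.10, limma adjusted p = 0.000302), while their difference of 0.24 from chronic libraries missed the threshold (95% interval 0.04 to 0.45, limma adjusted p = 0.102). That difference was called without chronic replicate 1 (0.38, limma adjusted p = 0.0191), on the deposited scale (0.44, limma adjusted p = 0.0316) and with a mean of at least 200 as the filter (0.29, limma adjusted p = 0.0372). With library totals the fall under chronic stimulation was -1.30 and the difference of MEK-inhibited from acute libraries -0.89, both called. The latter was lost on the row with the largest pause-region signal (-0.45, limma adjusted p = 0.0540).

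At the start of Tet2 the signal fell under chronic stimulation, as it did in the gene body. Its pause-region signal was 59.5, 90.9 and 186 in acute libraries, 25, 24.4 and 19 in chronic libraries, and 68.0, 55.0 and 45.1 in MEK-inhibited libraries. Chronic libraries lay below all others, and acute and MEK-inhibited ones overlapped. The pause-region signal fell by 1.94 on the log2 scale under chronic stimulation (SE 0.47, limma adjusted p = 0.00605). It was lost without acute replicate 3, the highest library (-1.52, limma adjusted p = 0.0857). The difference of 1.12 with the inhibitor did not pass (limma adjusted p = 0.247). MEK-inhibited libraries differed from acute ones by -0.81 in the pause region (limma adjusted p = 0.365), whereas in the gene body that difference was called. The start is shown because it is among the richest in CpG of all mouse promoters.
Tet2 at 133544390, minus strand, chr3:133544391-133544640: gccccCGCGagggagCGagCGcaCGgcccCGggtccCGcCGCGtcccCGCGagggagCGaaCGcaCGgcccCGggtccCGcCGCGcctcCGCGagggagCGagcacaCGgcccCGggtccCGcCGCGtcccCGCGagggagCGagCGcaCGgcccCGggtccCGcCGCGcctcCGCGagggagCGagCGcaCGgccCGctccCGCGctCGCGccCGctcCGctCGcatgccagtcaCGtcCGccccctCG
It holds 51 CpG, more than 99.9% of promoters, and is built of short repeated blocks. None of the searched letters of ETS (CCGGAAG), AP-1 (TGACTCA), CRE (TGACGTCA), E2F or SP1 occurs in these 250 bases. Those of ETS, AP-1 and CRE occur in 6.91%, 4.46% and 1.55% of promoters and in none of the 10 promoters matched to the 6 genes.

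Tet3 spans chr6:83362373-83459084 on the minus strand. Its gene-body signal was 15222, 18709 and 14118 in acute libraries, 20181, 19090 and 15763 in chronic libraries, and 16063, 15706 and 15049 in MEK-inhibited libraries. The groups overlapped. Chronic libraries differed from acute ones by 0.20 (95% interval -0.03 to 0.42, limma adjusted p = 0.168), and MEK-inhibited from chronic ones by -0.23 (95% interval -0.45 to -0.00, limma adjusted p = 0.171). Single libraries decided these calls: without acute replicate 2 the first was 0.31 (limma adjusted p = 0.0232), and without chronic replicate 3 they were 0.31 (limma adjusted p = 0.0174) and -0.28 (limma adjusted p = 0.0489). With library totals the first was -0.30 and was not called.

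Tet3 has 2 starts past the filter, and their pause-region signal was highest in different groups. The start at 83441632 lies within the Tet3-203 row, so its signal cannot be told apart from RNA begun upstream. At 83441632 (Tet3-205, also the start of the kept row within 50 bases) the pause-region signal was 37.3, 127 and 86.6 in acute, 283, 154 and 197 in chronic, and 112, 97.1 and 137 in MEK-inhibited libraries, and the chronic libraries lay above all others. At 83456392 (Tet3-203), upstream, it was 171, 174 and 83.7 in acute, 181, 107 and 117 in chronic, and 195, 237 and 224 in MEK-inhibited libraries, and the MEK-inhibited libraries lay above all others. By the two-sided exact permutation test, chronic against acute at 83441632 and MEK-inhibited against acute at 83456392 each gave p = 0.1. Both of these tests gave 0.264 when adjusted over 66 tests of starts. On the kept row the pause-region signal was 40.0, 120 and 87.6 in acute, 277, 122 and 182 in chronic, and 111, 92.6 and 134 in MEK-inhibited libraries. There the chronic libraries overlapped the MEK-inhibited ones, and the lowest chronic value (122) was close to the highest acute one (120). The kept-row signal rose by 1.23 under chronic stimulation (SE 0.37, limma adjusted p = 0.0277). This call was lost without acute replicate 1 (0.80, limma adjusted p = 0.209), chronic replicate 1 (0.95, limma adjusted p = 0.158) or chronic replicate 3 (1.24, limma adjusted p = 0.0632). With library totals it was 0.66 (limma adjusted p = 0.241), and on the row of the longest transcript, which begins at another start, the value was -0.04. The start that RefSeq lists lies 46 bases from the one named Tet3-205.
Tet3 at 83441678, minus strand, chr6:83441679-83441928: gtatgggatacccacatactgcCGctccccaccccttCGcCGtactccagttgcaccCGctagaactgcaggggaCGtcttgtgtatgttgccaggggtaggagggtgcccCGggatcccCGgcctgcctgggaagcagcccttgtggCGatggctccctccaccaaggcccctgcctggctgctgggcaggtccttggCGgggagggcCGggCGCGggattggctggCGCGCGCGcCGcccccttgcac
It holds 17 CpG, more than 76.5% of promoters, with a run of them close to the start.

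**Figure D2:**
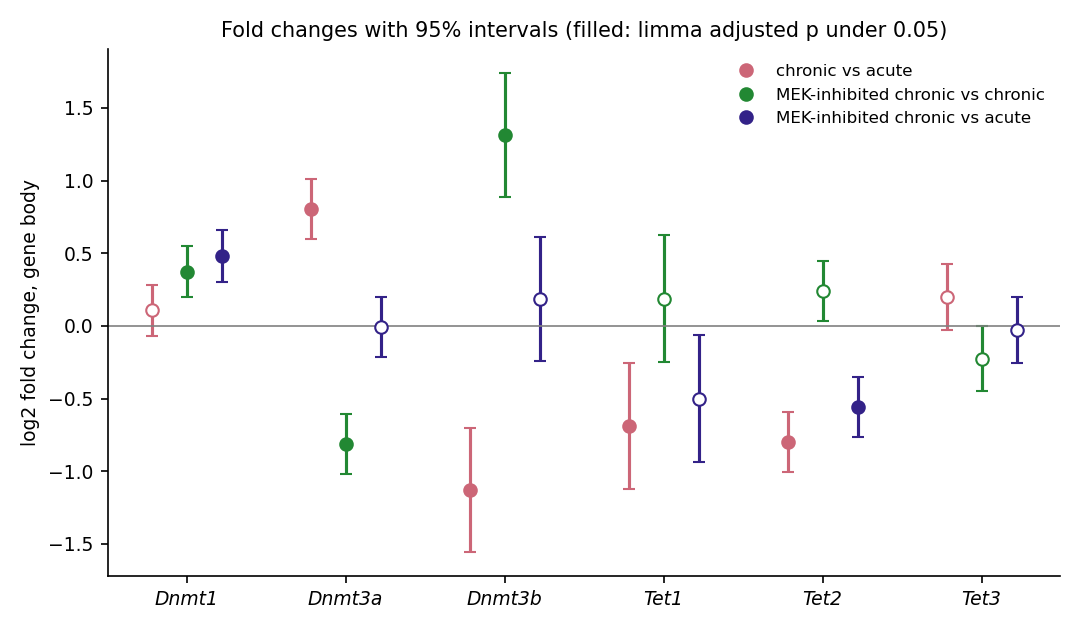
Log2 fold changes of gene-body signal (vertical axis) with 95% intervals from limma for the 6 genes in 3 comparisons; filled points had a limma adjusted p under 0.05. Dnmt3a (0.81, then -0.81) and Dnmt3b (-1.13, then 1.31) lie on opposite sides of 0 in the first 2 comparisons and at -0.01 and 0.19 in the third.

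In the pause region as a whole, 2 of the 3 genes tested were called between chronic and acute libraries (Tet3 higher, Tet2 lower), against 10.7% of 7678 genes tested (5.20% higher, 5.48% lower). In the comparisons of MEK-inhibited libraries with chronic and with acute ones 0 of 3 were called by limma, against 3.0% and 5.87% of genes. Without adjustment, Tet2 passed the same threshold in the first of these and no member in the second. Pausing, taken as log2 pause-region signal minus log2 gene-body signal, was called for 0 of 3 genes in every comparison by limma, against 0.0540%, 0.0135% and 0.00% of 7413 genes. For Tet2 it was -1.13 (limma adjusted p = 0.299) and for Tet3 1.03 (limma adjusted p = 0.280) between chronic and acute libraries. Without adjustment both of these passed, as did Tet2 with the inhibitor (0.88, limma adjusted p = 0.738), and no other. Over all annotated starts of the 6 genes, 43 in number and 22 of them past the filter, 5 did not overlap between chronic and acute libraries, 14 between MEK-inhibited and chronic, and 6 between MEK-inhibited and acute libraries. Over all 22344 annotated starts past the filter these shares were 25.4%, 19.8% and 26.0%. The starts of 1 gene share its transcription and are not separate measurements. No exact permutation test of a start could pass after adjustment.

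**Figure D3:**
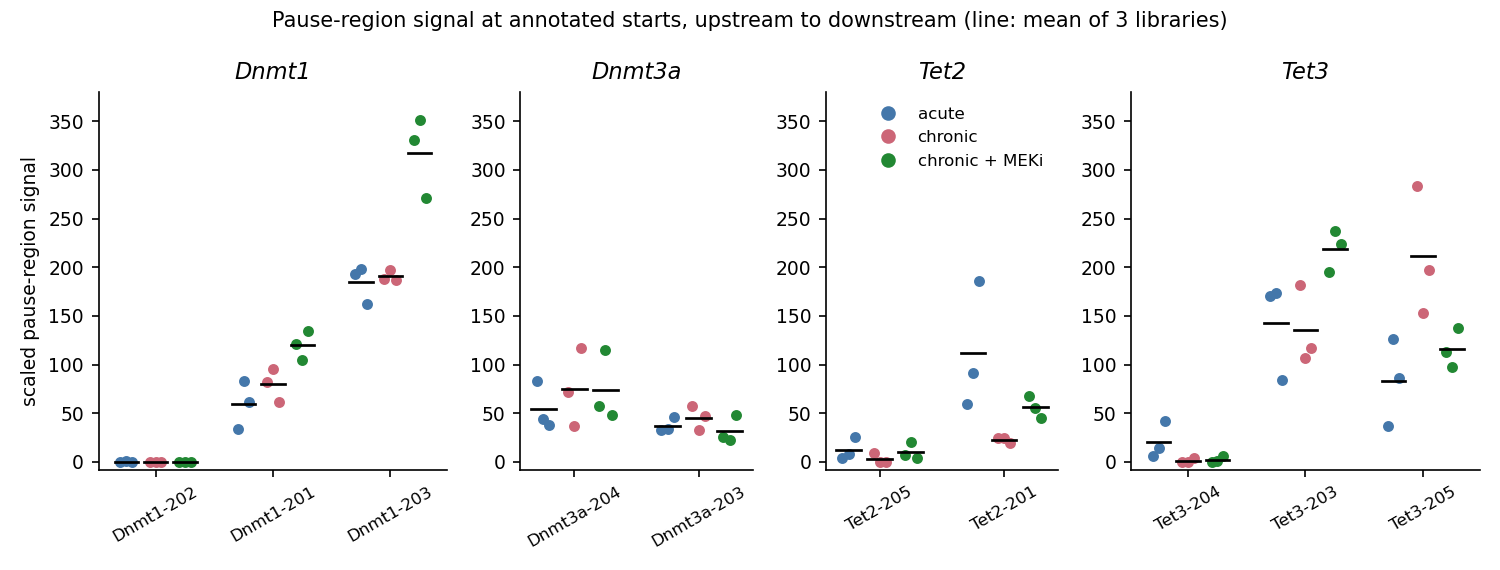
Scaled pause-region signal (vertical axis, linear) at annotated starts of Dnmt1, Dnmt3a, Tet2 and Tet3, ordered from upstream to downstream, with each library as a point and the group mean of 3 libraries as a line. Dnmt1-202 is at or near 0 while Dnmt1-203 reaches 351, and the 2 Tet3 starts are highest in different groups, with means of 219 at Tet3-203 in MEK-inhibited and 211 at Tet3-205 in chronic libraries.

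Ratios of 2 genes within a library do not depend on the scaling between libraries. The ratio of Dnmt3a to Tet2 was 1.26, 1.4 and 1.28 in acute, 4.03, 3.94 and 4.0 in chronic, and 2.11, 1.81 and 1.86 in MEK-inhibited libraries. The 3 groups did not overlap, and the chronic libraries differed from acute ones by 1.61 on the log2 scale. Dnmt3a to Dnmt3b was 7.55, 11 and 9.28 in acute, 54.2, 25.8 and 31.4 in chronic, and 8.85, 7.59 and 7.72 in MEK-inhibited libraries. The chronic libraries stood above all others, by 1.94 on the log2 scale against acute ones (MEK-inhibited minus chronic, -2.13). Tet2 to Tet3 was 0.427, 0.343 and 0.434 in acute, 0.200, 0.199 and 0.199 in chronic, and 0.262, 0.283 and 0.284 in MEK-inhibited libraries, again without overlap. Tet1 to Tet2 ran from 0.0662 to 0.0920 in acute, 0.0783 to 0.0882 in chronic and 0.0746 to 0.0862 in MEK-inhibited libraries, so the groups overlapped for this pair (chronic minus acute 0.10 on the log2 scale). Of 15 pairs of genes, 11 did not overlap between chronic and acute, 12 between MEK-inhibited and chronic, and 10 between MEK-inhibited and acute libraries. Over all pairs of the 15782 tested genes with signal in every library, 43.9%, 31.2% and 38.9% did not overlap. The 15 pairs reuse the same 6 genes. Where the groups of a pair did not overlap, the two-sided exact permutation test gave p = 0.1, its lowest value here, or 0.136 adjusted over 45 tests.

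**Figure D4:**
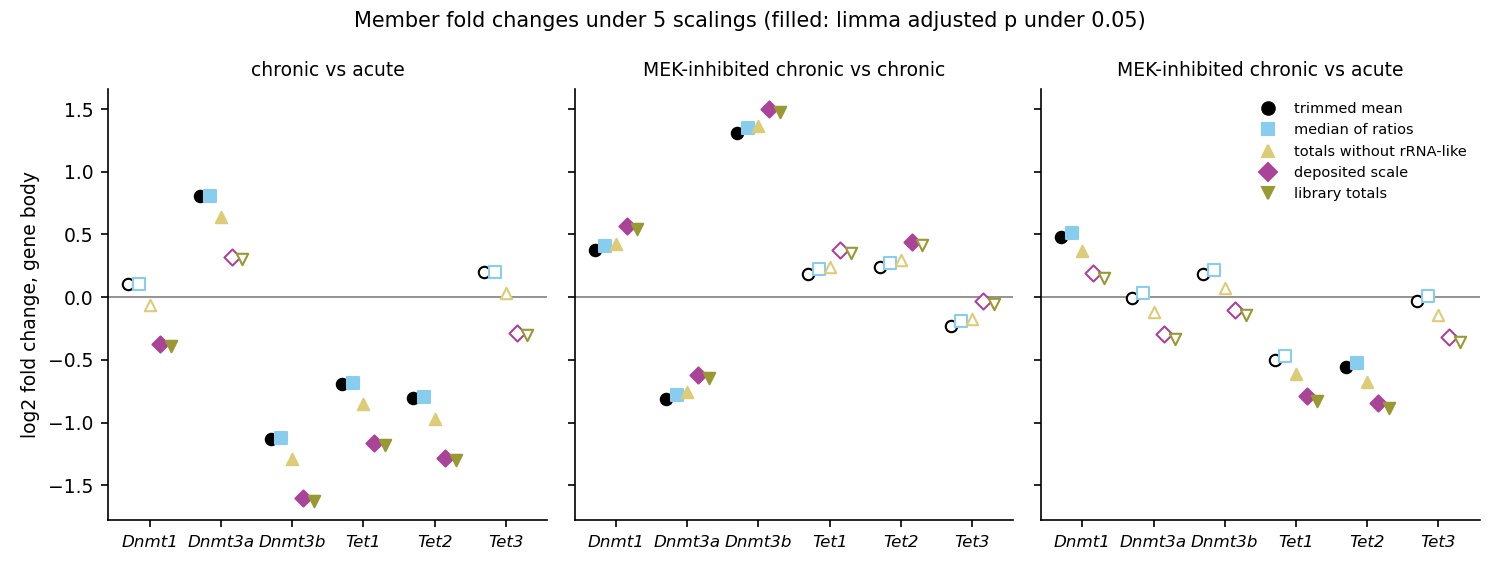
Log2 fold changes of gene-body signal (vertical axis) of the 6 genes under 5 scalings of the libraries, 1 panel per comparison; filled symbols had a limma adjusted p under 0.05. Between chronic and acute libraries Dnmt3b, Tet1 and Tet2 stay below 0 under all 5 scalings, Dnmt3a stays above 0 with 2 of its 5 values open (0.31 and 0.32), and Dnmt1 and Tet3 lie on either side of 0.

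The wider methylation system was read from 5 lists of genes, given by counts in the fit across all genes. Over all genes tested, 18.3% were higher and 15.5% lower between chronic and acute libraries, 8.11% and 9.61% between MEK-inhibited and chronic, and 12.5% and 14.0% between MEK-inhibited and acute ones. With library totals these shares were 6.87% and 42.9%, 11.1% and 4.65%, and 5.99% and 31.1%. Genes that overlap another gene are uncertain, since use of strand in the authors' counting is not given in the sources used here. Among 19 tested partners of the methyltransferases (20 have a row, of 21 listed), 6 were higher and 3 lower in chronic than acute libraries, with a median of 0.02 against -0.01 over all genes tested. With library totals the split was 2 higher and 10 lower. Uhrf1, which brings DNMT1 to half-methylated sites, had a signal of 3310 ± 237 in acute libraries (SD, n = 3), of 8557 ± 848 in chronic and of 9388 ± 787 in MEK-inhibited ones. It rose by 1.37 under chronic stimulation (SE 0.10, limma adjusted p = 5.04e-09) and differed by 0.14 with the inhibitor (95% interval -0.07 to 0.34, limma adjusted p = 0.413). Thus Uhrf1 was higher in both chronic groups, whereas Dnmt1 was called higher in the MEK-inhibited one. Kdm2b, a demethylase with a CXXC domain that binds unmethylated CpG, rose by 1.29 (limma adjusted p = 2.25e-08) and fell by 1.11 with the inhibitor (limma adjusted p = 4.23e-07). On the row with the largest pause-region signal neither was called, and the values were 0.13 (limma adjusted p = 0.897) and 0.53 (limma adjusted p = 0.635), the second of opposite sign. Suv39h2, a histone H3 lysine methyltransferase, rose by 0.90 (limma adjusted p = 0.00103, 0.40 and not called with library totals) and fell by 0.81 with the inhibitor (limma adjusted p = 0.00446). Usp7, the deubiquitinase that stabilises UHRF1 and DNMT1, fell by 0.61 (limma adjusted p = 1.31e-05), Trdmt1, a tRNA methyltransferase of the same fold, by 1.12 (limma adjusted p = 0.00298), and Setd2, the H3K36 trimethylase, by 0.31 (limma adjusted p = 0.00760).

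With the inhibitor, 5 partners were higher and 3 lower than in chronic libraries (median 0.13, against -0.03 over all genes). Ehmt2, an H3K9 methyltransferase, rose by 0.85 (limma adjusted p = 0.00107, and 0.0902 on the row with the largest pause-region signal), Ezh2, the H3K27 methyltransferase, by 0.49 (limma adjusted p = 0.000491), and Usp7 by 0.33 (limma adjusted p = 0.00766). The call of Usp7 was lost on the row with the largest pause-region signal (0.20, limma adjusted p = 0.629). It was also lost by limma without trend or robust moderation (limma adjusted p = 0.0549). Kdm2a, a close relative of Kdm2b, fell by 0.30 (limma adjusted p = 0.0205, -0.13 and not called with library totals). That call was lost under 10 of 22 alternatives, among them leaving out chronic replicate 1 or 2 or MEK-inhibited replicate 2 or 3 (limma adjusted p up to 0.299). Against acute libraries 6 were higher and 2 lower (median 0.01 against -0.05, and 3 higher and 9 lower with library totals). Nsd2, which methylates H3K36, rose there by 0.89 (limma adjusted p = 1.88e-07), Ehmt2 by 0.94 (limma adjusted p = 0.000270, but 0.10 and not called on the row with the largest pause-region signal) and Kdm2a fell by 0.49 (limma adjusted p = 0.000305).

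Of 10 tested readers of methylated or unmethylated CpG (of 12 listed), 1 was higher and 2 lower under chronic stimulation (median 0.13; 1 higher and 5 lower with library totals), shares near those over all genes (18.3% and 15.5%). Zbtb38, a zinc finger protein that binds methylated CpG, rose by 2.01 (SE 0.10, limma adjusted p = 8.91e-11), from a mean of 975 to 3935, and fell by 1.21 with the inhibitor (limma adjusted p = 1.65e-07). Its relative Zbtb4 fell by 1.61 (limma adjusted p = 2.50e-05) and rose by 0.79 with the inhibitor (limma adjusted p = 0.0218), a call lost without chronic replicate 2 (0.56, limma adjusted p = 0.0677) or MEK-inhibited replicate 3 (0.82, limma adjusted p = 0.0527). Mbd2, the methyl-CpG reader of the NuRD complex, fell by 0.57 (limma adjusted p = 9.91e-05) and rose by 0.35 with the inhibitor (limma adjusted p = 0.0130; without MEK-inhibited replicate 1, 0.30 and limma adjusted p = 0.0793). With the inhibitor 2 readers were higher and 1 lower than in chronic libraries (median 0.12), and against acute libraries 2 were higher and 2 lower (median 0.12; 1 higher and 4 lower with library totals). In the last comparison Mbd4, a glycosylase with a methyl-CpG binding domain, rose by 0.62 (limma adjusted p = 0.0184, 0.29 and not called with library totals) and Mbd5 fell by 0.32 (limma adjusted p = 0.0455). Without acute replicate 3 or MEK-inhibited replicate 2 Mbd4 was not called (limma adjusted p up to 0.0701). Mbd5 was not called under 12 of 22 alternatives, among them leaving out any library but chronic replicate 3 (limma adjusted p up to 0.267).

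Of 14 tested genes of oxidation and base excision repair (17 have a row, of 18 listed), 6 were higher and 1 lower under chronic stimulation (median 0.39; 3 higher and 5 lower with library totals). Gadd45b and Gadd45g, stress-induced adaptors linked to DNA demethylation, rose by 2.24 (limma adjusted p = 4.71e-06) and 1.05 (limma adjusted p = 2.77e-05), and Polb, the polymerase that fills the excised base, fell by 0.58 (limma adjusted p = 0.00473). With the inhibitor 2 were higher and 2 lower (median -0.10): Cxxc5, whose CXXC domain resembles that of the TET partner Cxxc4, rose by 1.27 (limma adjusted p = 0.0438) and the glycosylase Neil3 by 0.80 (limma adjusted p = 7.42e-05), while the abasic-site endonuclease Apex1 fell by 0.66 (limma adjusted p = 0.0334, -0.49 and not called with library totals) and Gadd45g by 0.64 (limma adjusted p = 0.00442). The call of Cxxc5 was lost with the replicate block (limma adjusted p = 0.0604) and without any library but acute replicate 2 and chronic replicate 3 (limma adjusted p up to 0.143). That of Apex1 was lost without chronic replicate 2 or 3 or any MEK-inhibited library (limma adjusted p up to 0.238). The rise of Neil3 with the inhibitor was not called on the row with the largest pause-region signal (0.55, limma adjusted p = 0.0677). The fall of Gadd45g with the inhibitor was not called by limma without trend or robust moderation (limma adjusted p = 0.0590). Against acute libraries 5 were higher and 1 lower (median 0.44; 3 and 3 with library totals), led by Neil3 at 1.72 (limma adjusted p = 5.83e-09) and the scaffold Xrcc1 at 0.89 (limma adjusted p = 3.47e-05).

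Of 20 tested genes of methyl donor and cofactor metabolism (21 listed), 5 were higher and 2 lower under chronic stimulation (median 0.17; 2 higher and 10 lower with library totals), against 18.3% and 15.5% of all genes (6.87% and 42.9% with library totals). Idh1, the cytosolic enzyme that makes the TET cofactor 2-oxoglutarate, rose by 2.02 (limma adjusted p = 0.000910) from a weak mean of 75.6 to 280. Ogdh, which consumes 2-oxoglutarate, fell by 0.50 (limma adjusted p = 0.000323) and rose by 0.49 with the inhibitor (limma adjusted p = 0.000795). Slc23a2, a transporter of vitamin C, another TET cofactor, fell by 0.44 (limma adjusted p = 0.00293). Tyms, thymidylate synthase, which draws on the folate pool, rose by 2.01 (limma adjusted p = 7.78e-10). With the inhibitor 1 was higher and 5 lower (median -0.14; 1 and 1 with library totals). Shmt1, which feeds serine carbon into folate, fell by 0.66 (limma adjusted p = 7.81e-05), and Ahcy, which clears the methyltransferase product S-adenosylhomocysteine, fell by 0.44 (limma adjusted p = 0.00716, -0.27 and not called with library totals). The call of Ahcy was also lost without chronic replicate 2 or MEK-inhibited replicate 2 or 3 (limma adjusted p up to 0.0769). Against acute libraries 2 were higher and 2 lower (median -0.01; 1 and 8 with library totals).

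Genes of DNA replication, the process that DNMT1 follows, were set beside it. Of 30 tested (31 listed), 25 were higher and 0 lower in chronic than acute libraries by limma, with a median of 0.84 (16 higher and 4 lower with library totals). At 29 higher and 0 lower against acute libraries, MEK-inhibited cells had a median of 0.94 (20 and 0 with library totals). Between MEK-inhibited and chronic libraries 1 was higher and 2 lower (median 0.09; 8 and 1 with library totals), whereas Dnmt1 rose by 0.37 there. Under chronic stimulation Rrm2, a subunit of ribonucleotide reductase, rose by 2.02 (limma adjusted p = 1.01e-08). The replication factor Mcm10 rose by 1.67 (limma adjusted p = 4.15e-09) and the clamp loader subunit Rfc3 by 1.64 (limma adjusted p = 8.69e-07). With the inhibitor Mcm2, a subunit of the replicative helicase, rose by 0.29 (limma adjusted p = 0.0446), and Rfc3 fell by 0.75 (limma adjusted p = 0.00545). Mcm2 was not called under 7 of 22 alternatives, among them leaving out chronic replicate 2 or MEK-inhibited replicate 1 or 3 (limma adjusted p up to 0.0877). Rfc3 was not called without chronic replicate 3 or MEK-inhibited replicate 2 (limma adjusted p up to 0.0519).

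**Figure D5:**
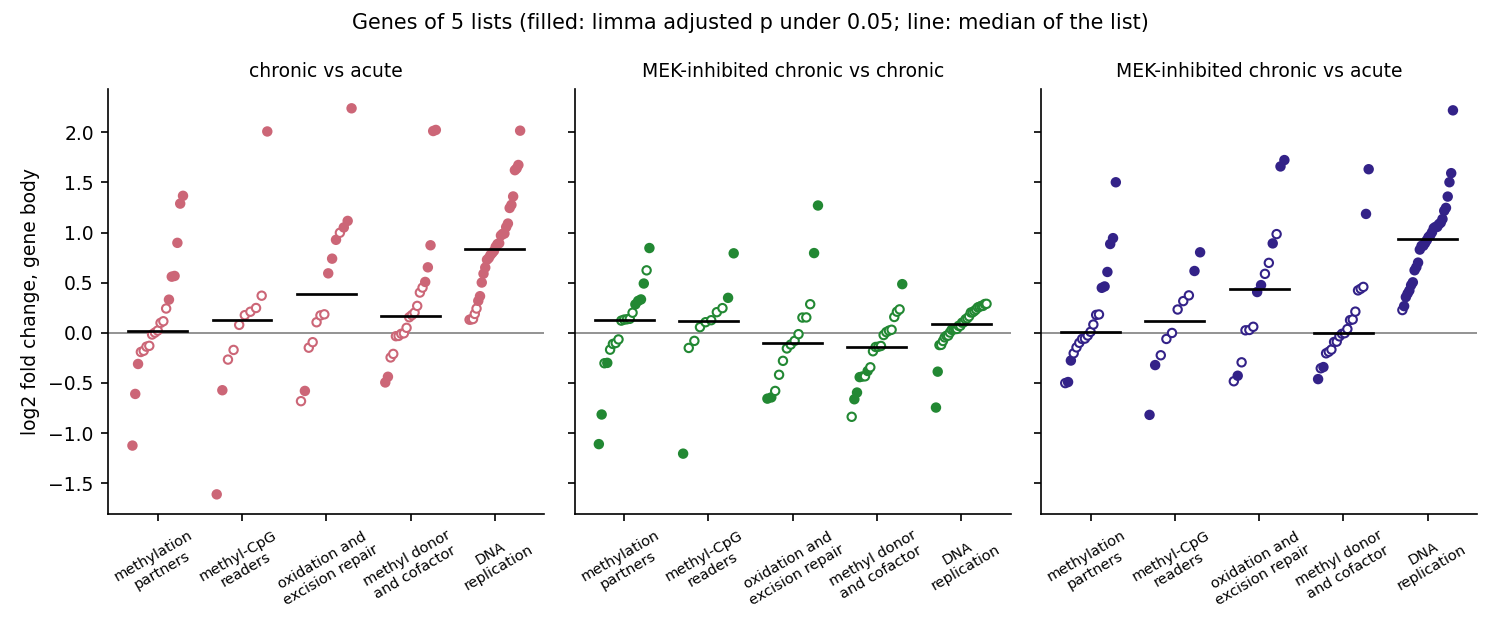
Log2 fold changes of gene-body signal (vertical axis) of the tested genes of 5 lists in 3 comparisons, each gene a point ordered within its list, filled where the limma adjusted p was under 0.05, with the list's median as a line. DNA replication genes lie above 0 against acute libraries (medians 0.84 and 0.94), and the other lists hold genes on both sides of 0.

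The genes whose log2 gene-body signal followed each member most closely over the 9 libraries were named as a description. Since the 9 libraries form 3 groups, such correlations mostly reflect the group means. Dnmt3a was followed by Lrp8 (Pearson's r = 0.997), Pgs1 (0.994) and Lrp8os2 (0.992), and Dnmt3b by Mob1b (0.959), Dapk2 (0.954) and Prr33 (0.946). For Dnmt1 these were Gna11 (0.983), Hdac1 (0.983) and Chd4 (0.978). For Tet1 they were St3gal4 (0.990), Aff1 (0.989) and Smyd2 (0.972), for Tet2 Pacs1 (0.993), Inpp4b (0.993) and Msra (0.993), and for Tet3 Airn (0.960), Rbm19 (0.950) and Ccdc88c (0.950).

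Dnmt1 overlaps no other annotated gene. Each of the other 5 overlaps 1 or 2 genes annotated as antisense, as a processed transcript or as awaiting experimental support, whose signal was between 0.883% (Dnmt3aos) and 6.30% (B230319C09Rik, within Tet3) of the member's. B230319C09Rik lies outside the kept row of Tet3 and begins at 83441755 on the plus strand, close to the Tet3 start at 83441632. Its part in the pause-region signal of that start was not tested. Markers of other cells that the cultures could hold had lower sums than the CD8 markers, whose sum has Ptprc as its largest part. Of B cell markers 4 of 7 passed the filter, with sums of 781 to 937 in acute, 463 to 498 in chronic and 271 to 707 in MEK-inhibited libraries. Cd79a, a chain of the B cell receptor complex, had means of 339, 108 and 149 in these groups, and Ms4a1, which encodes CD20, had a mean of at most 15.9. Myeloid markers (3 of 7 passed) summed to 298 to 360, 218 to 259 and 160 to 348, with Lyz2 and Cd14 at means of at most 3.24, and NK cell markers (2 of 4) to 125 to 158, 365 to 477 and 71.3 to 93.7, with Ncr1 at 3.95 or less. Of the NK cell markers that passed, Klrc2 had means of 47.2, 377 and 24.9 and Tyrobp 82.3, 22.1 and 17.5, so the high chronic sum was Klrc2. CD4 T cell markers (2 of 3 have a row, both passed) summed to 1047 to 1395, 1086 to 1403 and 1669 to 1946. Their members went opposite ways: Cd4 had means of 446, 237 and 112, and Zbtb7b 798, 1018 and 1721. In the same groups Cd8a had means of 4107, 986 and 2804, and Cd8b1 of 1894, 1249 and 1987. Zbtb7b was thus above Cd8a in chronic libraries, and the sums cannot show that CD4 T cell signal was weak. No erythroid marker passed. The part of these other cells in the results was not tested. These are bulk libraries, in which a change in the mix of cells and a change per cell cannot be told apart.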

How the data were processed

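Nascent RNA captured after 5-ethynyl uridine labelling was sequenced as paired reads of 100 bases, per the labels' protocols. The submitters' processing notes name Trim Galore 0.6.10, STAR 2.7.0a, SAMtools 1.19.2, deepTools 0.1.9 and R 4.1.2 and build mm10; their roles, the region limits and the use of strand are not given in the sources used here. The authors deposited 2 tables of signal per transcript, whose low values are multiples of a step that differs between libraries, so they were not treated as read counts. Of 118482 rows, 117346 matched GENCODE M21 (GRCm38) with version, 383 without, and 753 were left out. Matched rows lie on 19 autosomes.

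Libraries of a table were brought to 1 scale by a trimmed mean of log ratios without weights (30% of log ratios and 5% of levels trimmed from each end). One limma model (limma 3.58.1, R 4.3.3; trend and robust) with 1 mean for each group described log2(signal + 5) in the 9 libraries, with Benjamini-Hochberg adjustment over all genes tested and a threshold of 0.05. It was tested on simulated data. Python 3.11.15 with pandas 2.3.3 matched the rows. Promoters are RefSeq's (GRCm38.p6), and 250 bases before the start were searched on both strands. The 6 genes and the lists were chosen with earlier results of these data known. Named list genes were up to 3 rises and 3 falls per list and comparison, called and with a mean of at least 100 in the higher group; the text gives most of them. Uhrf1 and Dusp6 were fixed by name. Alternatives covered scaling, pseudocount, filter, limma settings, row choice, replicate block and each left-out library.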

Additional observations from a re-analysis of the deposited data

How the results depend on the processing

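Of 771 alternative values of member fold changes, 741 kept their sign or, where not called, stayed uncalled, 17 lost their call, 9 gained one and 4 reversed; a change of sign with neither value called was not counted as reversed. The reversals were Dnmt1 between chronic and acute libraries with library totals (-0.39) and on the deposited scale (-0.38), and the pause region of Tet3 in the same comparison on the row of the longest transcript (-0.042) and on the row with the largest pause-region signal (-0.00166). Among named list genes, Kdm2b (0.53, MEK-inhibited against chronic) and Lig3 (0.095, MEK-inhibited against acute) reversed on the row with the largest pause-region signal, and 152 of 1426 values lost their call. With no filter these included Setd2 and Slc23a2 between chronic and acute libraries, and Usp7, Zbtb4, Mbd2 and Ahcy with the inhibitor. On that row, which 5 of the 6 genes passed, 2 members were called in the gene body between chronic and acute libraries and 1 between MEK-inhibited and acute ones, and 1 was called in the pause region between MEK-inhibited and acute libraries (Dnmt1, 0.82, limma adjusted p = 0.0386). In the pause region, members called between chronic and acute libraries numbered 1 in place of 2 with library totals, the deposited scale, no filter, limma without trend or robust moderation, the longest row and the row with the largest pause-region signal, and 0 with a mean of at least 200, which none of the 6 genes reached there. Leaving out 1 library at a time gave 1 to 2 called there. The other counts of called members moved by no more than 1.5 times.

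Of 330 list counts 48 moved by over 1.5 times, most of them small. The cause of these changes was not tested, except that the median gene moved with the scaling: by library totals it stood at -0.50, 0.14 and -0.37 in the 3 comparisons, and on the deposited scale at -0.48, 0.16 and -0.33. Over all genes tested between chronic and acute libraries, 2914 were higher and 2470 lower, but 1096 and 6846 with library totals. With no filter 34470 genes were tested in place of 15942, and Dnmt1 was no longer called with the inhibitor (0.37, limma adjusted p = 0.0750).

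Replicate numbers gave no clear pairing over the 3 groups: same-numbered libraries of different groups had correlations of their deviations from -0.53 to 0.10, with 0 of 9 pairs over 0.1. Between acute and chronic libraries alone, same-numbered pairs had 0.09, 0.10 and 0.07, and pairs with different numbers ran from -0.08 to -0.01. Whether this is a weak pairing of those groups was not tested. Among pairs with different numbers, 5 of 18 were over 0.1, with the highest at 0.51. What those libraries share was not tested. With the replicate number as a block, 4, 3 and 2 members were called in the gene body, 2, 0 and 0 in the pause region and 0 for pausing, as without it; of the named list genes, Cxxc5 lost its call. Groups of 3 libraries allow no test for outlying samples, and the unknown depth limits what can be said of the pause region of Dnmt3b and Tet1, at or near 0.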
